A study of Mus musculus with 12 samples.

Results

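The NF-kB family was described as 10 genes. Its subunit genes were Nfkb1, Nfkb2, Rel, Rela and Relb, and its classical inhibitor genes Nfkbia, Nfkbib and Nfkbie. The remaining members, Nfkbiz and Bcl3, each encode a nuclear IkB protein. A member was taken as the probe set whose annotation gives its symbol and no other gene. In that way 9 of the 10 members were measured, each by 1 probe set, among 19937 genes. Nfkb1 was not analysed here.

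The samples were titled GM-DCs, for dendritic cells, which take up antigen and present it to T cells. Mouse bone marrow was cultured for 7 days with 200 ng/ml GM-CSF, and cells were selected on CD11c beads to a stated purity above 95%. RNA was measured on 12 Affymetrix mouse gene arrays, 1 per sample, in 4 groups of 3. The groups were Il2 knockout (KO) cells with curdlan for 6 h, untreated KO cells, wild-type (WT) cells with curdlan for 6 h and untreated WT cells. Curdlan is a beta-glucan, recognised by the receptor Dectin-1. The strain given for every sample, WT included, is B6.129P2-Il2tm1Hor/J, and genotype was therefore read from the titles and the genotype label. Il2tm1Hor is a disruption of Il2 carried by the whole animal and not restricted to a cell type, and no other strain is named for the WT animals. No label ties a replicate to its own animal or culture, and the p-values therefore cover only the spread among the samples at hand, which may be technical. In such bulk samples, fewer cells of a type and less RNA per cell cannot be told apart.

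NF-kB factors are dimers of related subunits, most of them held in the cytoplasm of resting cells by IkB proteins. Signals from pattern recognition receptors, Dectin-1 among them, activate the IKK kinases, which mark IkB proteins for degradation, and the freed dimers move to the nucleus. A slower, alternative route uses the kinase NIK and processing of the Nfkb2 product, whose usual partner is Relb. Several NF-kB and IkB genes are themselves NF-kB targets, and in dendritic cells these factors act in maturation, cytokine production and survival.

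Promoter sequence is shown because the measured members moved together with curdlan and several are known NF-kB targets. RefSeq windows of 300 bases (250 before and 50 after a transcript start, build GRCm38.p6) were matched by symbol for 7 of the 10 members. They were searched on both strands for the kappa-B consensus, a 10-base motif read as 3 G, a purine, any 2 bases, 2 pyrimidines and 2 C, and overlapping matches were kept. Windows of 5 of the 7 genes (71.4%) held it, against 9.55% of the 27025 genes with a window. A match is a description of the letters, not evidence of binding. These sequences are the 250 bases before the start, 5′ to 3′ on the gene's strand, with matches in capitals. Nfkbia, Nfkbie, Rel and Nfkb2 are given as members with a match there, and Rela as a member without one.
Nfkbia, chr12:55492648-55492897, minus strand: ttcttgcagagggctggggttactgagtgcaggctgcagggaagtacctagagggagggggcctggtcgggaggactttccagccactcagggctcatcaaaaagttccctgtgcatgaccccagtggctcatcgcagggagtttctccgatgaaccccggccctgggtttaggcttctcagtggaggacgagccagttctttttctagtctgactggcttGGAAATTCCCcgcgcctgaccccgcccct
Nfkbie, chr17:45555450-45555699, plus strand: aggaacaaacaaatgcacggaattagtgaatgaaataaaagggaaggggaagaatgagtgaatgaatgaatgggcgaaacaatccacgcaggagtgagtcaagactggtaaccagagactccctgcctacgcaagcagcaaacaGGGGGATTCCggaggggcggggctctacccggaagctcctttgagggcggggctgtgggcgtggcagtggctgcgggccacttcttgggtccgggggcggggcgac
Rel, chr11:23770970-23771219, minus strand: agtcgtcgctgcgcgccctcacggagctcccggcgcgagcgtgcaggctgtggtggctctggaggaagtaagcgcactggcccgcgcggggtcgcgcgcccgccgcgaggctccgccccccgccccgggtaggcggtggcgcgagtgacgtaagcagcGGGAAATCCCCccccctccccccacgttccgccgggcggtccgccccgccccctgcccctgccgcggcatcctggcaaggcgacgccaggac
Nfkb2, chr19:46304487-46304736, plus strand: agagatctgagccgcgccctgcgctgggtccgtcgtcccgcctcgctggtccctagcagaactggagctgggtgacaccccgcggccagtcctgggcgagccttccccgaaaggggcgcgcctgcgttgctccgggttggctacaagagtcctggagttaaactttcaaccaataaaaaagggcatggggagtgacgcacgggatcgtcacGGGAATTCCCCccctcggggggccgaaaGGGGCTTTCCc
Rela, chr19:5637291-5637540, plus strand: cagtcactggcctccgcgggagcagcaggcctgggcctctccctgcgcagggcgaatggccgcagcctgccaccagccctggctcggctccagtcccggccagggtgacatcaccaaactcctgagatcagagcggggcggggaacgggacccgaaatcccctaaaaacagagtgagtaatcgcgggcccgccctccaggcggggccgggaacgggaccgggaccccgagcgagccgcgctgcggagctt

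In Nfkbia the match began 29 bases before the start, and in Nfkbie 106 bases before it. Rel had 2 overlapping matches, which began 92 and 91 bases before the start. Nfkb2 had an overlapping pair, 39 and 38 bases before this start, and another match 11 bases before it. Past a start, Bcl3 had a match 2 bases after it. Nfkb2 had one 10 bases after the second of its starts with a window, besides one 236 bases before that start. The former also lies 225 bases before the third such start of Nfkb2. The starts used for Bcl3, Rela and Nfkb2 lie inside the gene positions given below. The stretches of 30 bases around the 2 matches past a start are given for comparison with the matches above.
Bcl3, chr7:19822734-19822763, minus strand: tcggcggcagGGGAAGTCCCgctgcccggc
Nfkb2, second start, chr19:46305695-46305724, plus strand: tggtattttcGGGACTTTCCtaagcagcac
The windows of Rela and Nfkbib held no match, which says only that these letters are not in this stretch.

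The deposited values are RMA log2 expression values, so a difference of 1 is a doubling. Array medians over all probe sets lay between 6.59 and 6.64, and arrays correlated with each other across probe sets at 0.981 to 0.997. Precision is limited by the number of arrays. The disrupted gene was checked first. Il2 had 5.87, 5.80 and 5.63 in KO cells with curdlan and 6.04, 5.88 and 5.77 in untreated KO cells, against 7.80, 7.22 and 6.74 in WT cells with curdlan and 5.56, 5.37 and 5.53 in untreated WT cells. It rose with curdlan in WT cells (log2 difference 1.77, limma adjusted p 0.000159) and did not pass in KO cells (-0.13, adjusted p 0.652). Where the probes lie relative to the disrupted stretch is not stated in the labels. Over the 19937 genes tested the array medians were higher, 6.89 to 6.99. For cell type markers, the array median means the middle of these medians, set against the group mean of a marker. Of 8 dendritic cell markers, 8 lay above the array median in curdlan-treated groups and 7 in untreated groups. The 6 macrophage markers all lay above it in every group, so these markers do not set the cells apart from macrophages. None of the measured T cell (5 of 6 listed), B cell (4 of 5), NK cell (4 of 4) or erythroid (2 of 5) markers did, and 1 marker each of the neutrophil, mast cell and stroma lists did.

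All 9 measured members had means above the median of gene means. Rel lay highest, at the 97.7th percentile of gene means over the 12 arrays, followed by Nfkbib at the 96.3rd and Nfkbia at the 96.1st. Rela (89.4), Nfkbie (88.8), Nfkb2 (88.4), Bcl3 (83.4) and Relb (72.9) came next, and Nfkbiz was lowest at 61.2. Probe sets differ in how strongly they bind, so these percentiles place each probe set on the array and do not rank transcript amounts.

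The first comparison asks what 6 h of curdlan did to the family in each genotype. All 9 measured members rose with curdlan in KO cells and all 9 rose in WT cells (limma, adjusted p under 0.05 over all genes). Over all genes tested, 9.29% rose and 13.2% fell in KO cells, and 7.27% rose and 12.3% fell in WT cells. The curdlan-treated arrays did not overlap the untreated arrays for 9 of 9 members in KO cells, where 40.3% of genes showed such a separation in either direction. The same held for 9 of 9 members in WT cells, where 38% of genes did. The median log2 difference of the members was 0.77 in KO cells and 0.81 in WT cells, beside 0.04 and 0.02 over all genes.

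**Figure D1:**
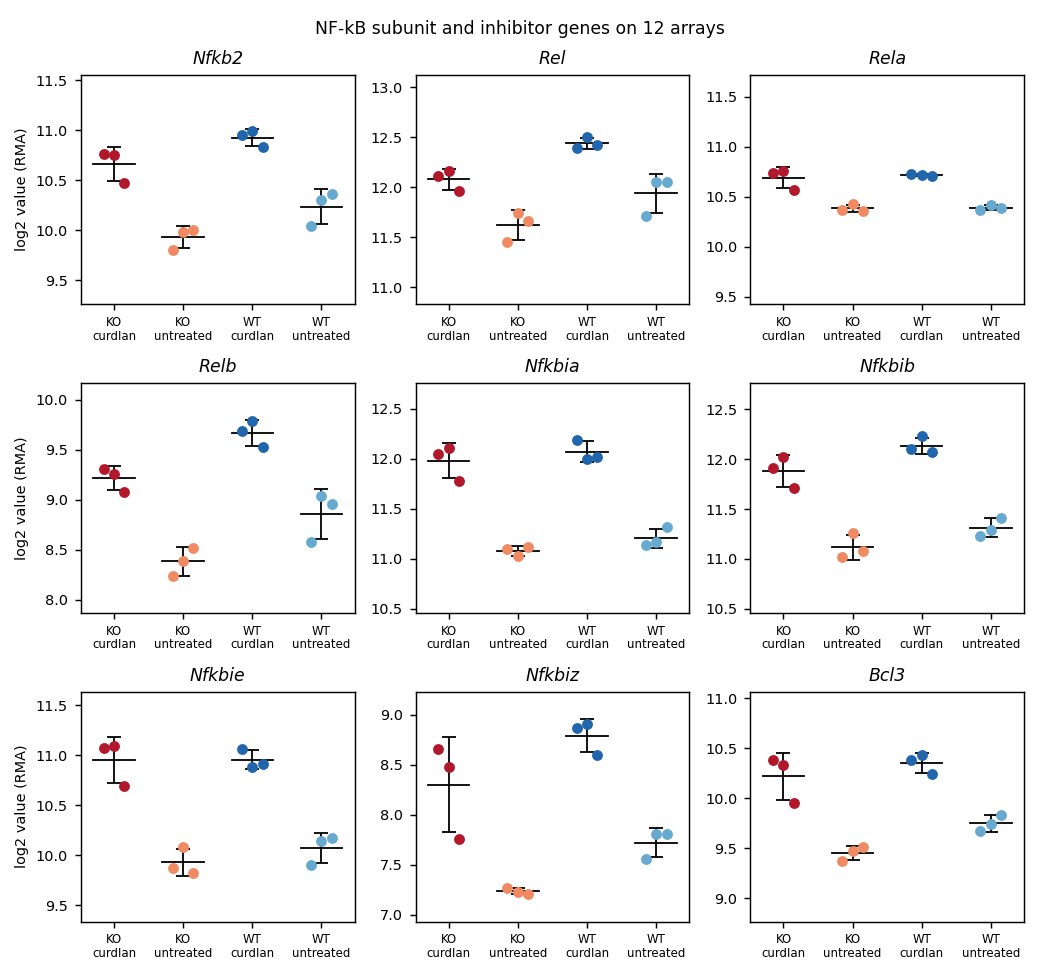
RMA log2 values (y axis) of the 9 measured members in the 4 groups (x axis), 1 point per array, with the group mean (line) and SD (bar). All panels span the same number of log2 units, and in each panel the 3 curdlan-treated arrays of a genotype lie above its 3 untreated arrays.

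Among the subunits, the rises were unequal. Relb, whose protein pairs mainly with the processed Nfkb2 product, lies on chromosome 7 between 19606217 and 19629438. In KO cells Relb had 9.31, 9.26 and 9.08 with curdlan, against 8.24, 8.39 and 8.52 untreated. In WT cells Relb had 9.69, 9.78 and 9.53 with curdlan, against 8.58, 9.04 and 8.96 untreated. Each treated array lay above each untreated array of its genotype. The rise was 1.78-fold in KO cells (log2 difference 0.83 ± 0.12, SE, adjusted p 0.000996) and 1.75-fold in WT cells (0.81 ± 0.12, SE, adjusted p 0.00102).

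Nfkb2 encodes a precursor that itself acts as an IkB-like inhibitor until it is processed to a subunit (chromosome 19, 46300994 to 46312400). In KO cells Nfkb2 had 10.76, 10.75 and 10.47 with curdlan, against 9.81, 9.98 and 10.00 untreated. In WT cells it had 10.95, 10.99 and 10.83 with curdlan, against 10.04, 10.30 and 10.36 untreated. The groups were again fully apart, and the third KO array with curdlan was the lowest of the treated arrays. Nfkb2 rose 1.66-fold in KO cells (0.73, adjusted p 0.00082) and 1.61-fold in WT cells (0.69, adjusted p 0.000966).

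Rel, which encodes the activating subunit c-Rel (chromosome 11, 23736847 to 23770969), rose less. In KO cells Rel had 12.11, 12.16 and 11.96 with curdlan, against 11.46, 11.74 and 11.66 untreated. In WT cells Rel had 12.39, 12.50 and 12.42 with curdlan, against 11.71, 12.05 and 12.05 untreated. The groups of each genotype were apart, but the lowest treated KO array lay below the highest untreated WT array. The rise was 1.37-fold in KO cells (0.46, adjusted p 0.00938) and 1.41-fold in WT cells (0.50, adjusted p 0.00546).

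Rela encodes p65, the activating subunit of the most studied NF-kB dimer (chromosome 19, 5637442 to 5648134). It had 10.74, 10.76 and 10.57 in KO cells with curdlan, against 10.37, 10.43 and 10.36 in untreated KO cells. It had 10.72, 10.72 and 10.70 in WT cells with curdlan, against 10.36, 10.42 and 10.39 in untreated WT cells. The WT arrays were tightly grouped, with an SD of 0.01 treated and 0.03 untreated. Rela had the smallest rise of the members, 1.23-fold in KO cells (0.30, adjusted p 0.00416) and 1.25-fold in WT cells (0.33, adjusted p 0.0025). Its 95% interval, 0.18 to 0.43 in KO cells, lay below the intervals of 7 other members there (all but Rel). In WT cells its interval, 0.20 to 0.45, lay below those of 6 (all but Rel and Bcl3). In KO cells the calls of Rel and Rela were lost without the KO arrays numbered 1 (adjusted p 0.115 for Rel and 0.0655 for Rela). The rise of the other 7 members in KO cells and of all 9 in WT cells kept its call in each of the 18 alternatives tried.

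The classical inhibitors, which hold dimers in the cytoplasm, rose together. Nfkbia encodes IkB-alpha, the inhibitor known for its fast resynthesis after NF-kB activation (chromosome 12, 55489409 to 55492647). In KO cells Nfkbia had 12.05, 12.11 and 11.78 with curdlan, against 11.10, 11.02 and 11.11 untreated. In WT cells it had 12.19, 11.99 and 12.02 with curdlan, against 11.13, 11.17 and 11.31 untreated. All treated arrays were above all untreated arrays of both genotypes. Nfkbia rose 1.87-fold in KO cells (0.90, adjusted p 7.71e-05) and 1.82-fold in WT cells (0.86, adjusted p 8.29e-05), the lowest adjusted p among the members in each genotype.

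Nfkbie encodes IkB-epsilon, known to act more slowly than IkB-alpha in restraining NF-kB (chromosome 17, 45555700 to 45563169). It had 11.07, 11.09 and 10.69 in KO cells with curdlan, against 9.88, 10.08 and 9.83 in untreated KO cells. It had 11.06, 10.89 and 10.91 in WT cells with curdlan, against 9.90, 10.15 and 10.17 in untreated WT cells. The groups with curdlan had the same mean, 10.95. Nfkbie rose 2.03-fold in KO cells (1.02, adjusted p 0.000197) and 1.84-fold in WT cells (0.88, adjusted p 0.00043).

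Nfkbib encodes IkB-beta (chromosome 7, 28758251 to 28766644). It had 11.91, 12.02 and 11.71 in KO cells with curdlan, against 11.02, 11.26 and 11.08 in untreated KO cells. It had 12.10, 12.23 and 12.07 in WT cells with curdlan, against 11.23, 11.29 and 11.41 in untreated WT cells. Here too the groups did not overlap within a genotype. Nfkbib rose 1.70-fold in KO cells (0.76, adjusted p 0.000267) and 1.76-fold in WT cells (0.82, adjusted p 0.00013). Of the 3 classical inhibitors it is the one whose promoter window held no match to the consensus.

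The nuclear IkB proteins bind NF-kB dimers on DNA and can help transcription as well as limit it. Nfkbiz encodes IkB-zeta, needed for induction of a class of secondary genes that includes Il6 (chromosome 16, 55811375 to 55838954). In KO cells Nfkbiz had 8.66, 8.48 and 7.76 with curdlan, against 7.27, 7.23 and 7.21 untreated. In WT cells it had 8.87, 8.91 and 8.60 with curdlan, against 7.55, 7.80 and 7.80 untreated. The KO arrays with curdlan were widely spread (SD 0.48), and the third of them fell below the highest untreated WT array, while the untreated KO arrays were tightly grouped (SD 0.03). Nfkbiz had the largest rise of the members in each genotype, 2.09-fold in KO cells (1.06, 95% interval 0.66 to 1.46, adjusted p 0.00275) and 2.10-fold in WT cells (1.07, 0.67 to 1.47, adjusted p 0.00227). Its interval overlapped those of all members but Rela in both genotypes, so its place at the top is not set apart from the other members.

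Bcl3 encodes a nuclear IkB protein that binds dimers without activating domains (chromosome 7, 19808462 to 19822824). In KO cells Bcl3 had 10.38, 10.33 and 9.95 with curdlan, against 9.38, 9.48 and 9.51 untreated. In WT cells it had 10.39, 10.43 and 10.24 with curdlan, against 9.67, 9.74 and 9.84 untreated. The treated arrays of both genotypes lay above every untreated array. Bcl3 rose 1.70-fold in KO cells (0.77, adjusted p 0.000641) and 1.52-fold in WT cells (0.60, adjusted p 0.00227).

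By role, the median log2 difference in KO cells was 0.59 over the 4 subunits, 0.90 over the 3 classical inhibitors and 0.91 over the 2 nuclear IkB members. In WT cells it was 0.59, 0.86 and 0.84. In KO cells the ranges of these roles overlapped, at 0.30 to 0.83 for the subunits and 0.76 to 1.02 for the classical inhibitors. In WT cells they did not quite meet, at 0.33 to 0.81 for the subunits and 0.82 to 0.88 for the classical inhibitors. The 95% intervals of Relb and of all 3 classical inhibitors overlapped in both genotypes. Some macrophage and dendritic cell markers moved with curdlan as well. The mean of the 6 macrophage markers lay between 11.90 and 11.95 on treated against 11.72 and 11.88 on untreated KO arrays, and between 11.78 and 11.93 on treated against 11.59 and 11.72 on untreated WT arrays. Fcgr1 (0.64 in KO and 0.77 in WT cells) and Mertk (0.32 in KO and 0.38 in WT cells) rose in both genotypes, and the other 4 did not pass: Cd14 differed by 0.40 and 0.43 in KO and WT cells, Cd68 by -0.07 and -0.02, Csf1r by -0.13 and -0.16, and Adgre1 by -0.23 and -0.31. The mean of the 8 dendritic cell markers lay between 11.18 and 11.31 on treated against 10.95 and 11.15 on untreated KO arrays, and between 11.39 and 11.43 on treated against 11.21 and 11.36 on untreated WT arrays. Of these Zbtb46 rose in KO cells (0.53, adjusted p 0.00229) and WT cells (0.44, adjusted p 0.00539). Flt3 rose in KO cells (0.92, adjusted p 0.0147) and differed by 0.59 in WT cells without passing (adjusted p 0.0906). The median of the 8 was -0.03 in KO cells and -0.02 in WT cells. The part of either marker list in the rise of the members was not tested.

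**Figure D2:**
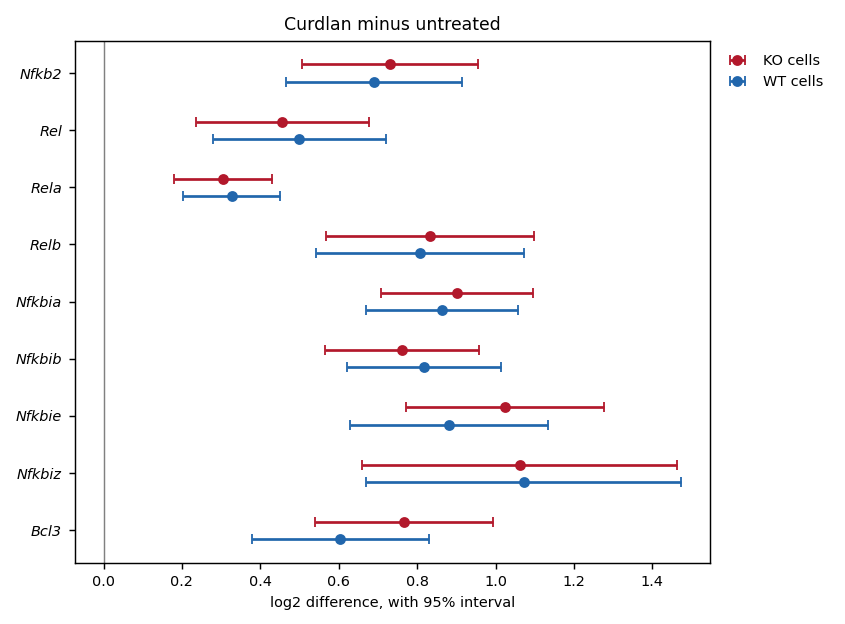
Log2 difference, curdlan minus untreated (x axis), of the 9 members (y axis) in KO cells and WT cells, with 95% intervals from the limma fit. All 18 intervals lie above 0. Rela has the smallest difference and Nfkbiz the largest in both genotypes.

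The size of the rise varied between same-numbered arrays, whose deviations from the group means went together (correlations of 0.486 to 0.604 in KO cells and 0.368 to 0.450 in WT cells). The difference between same-numbered arrays was positive for every member in all 6 pairs. Relb differed by 1.07, 0.87 and 0.56 in the KO pairs and by 1.11, 0.74 and 0.57 in the WT pairs. Nfkbiz differed by 1.39, 1.25 and 0.55 in the KO pairs and by 1.31, 1.10 and 0.80 in the WT pairs. Rela, whose rise was smallest, differed by 0.37, 0.33 and 0.21 in the KO pairs and 0.36, 0.30 and 0.32 in the WT pairs.

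KO pair 3 had the smallest difference of the KO pairs for 9 of 9 members, and WT pair 3 had the smallest of the WT pairs for 7 of 9. The other two, Rela and Nfkbie, were smallest in WT pair 2. The median over members of a pair's difference divided by the mean of its genotype was 0.672 in KO pair 3 and 0.744 in WT pair 3. The same measure was 1.29 in KO pair 1 and 1.23 in WT pair 1. It was not confined to the family: over all genes called in each genotype, the median was 0.789 in KO pair 3 (4481 genes) and 0.879 in WT pair 3 (3899 genes), against 1.16 in both pairs numbered 1.

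**Figure D3:**
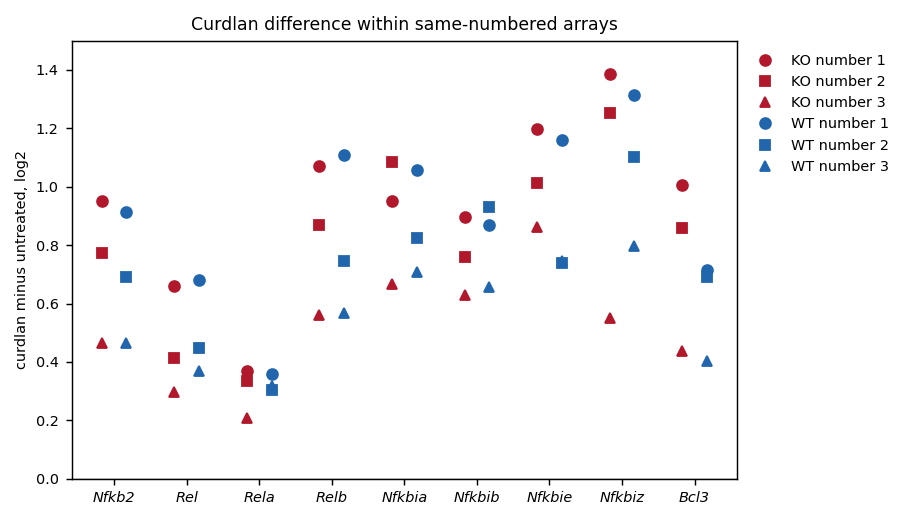
Curdlan minus untreated on the log2 scale (y axis) for each member (x axis) within same-numbered arrays, 3 KO pairs and 3 WT pairs. All points lie above 0, and KO pair 3 has the lowest KO point for each of the 9 members.

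The second comparison asks whether the family's level depended on genotype. With curdlan, all 9 members had lower means in KO than in WT cells (42% of genes did) and 0 of 9 passed in limma at an adjusted p under 0.05, where 0.622% of genes did in either direction. At an unadjusted p under 0.05, 5 of 9 passed, against 11.6% of genes. Arrays of the genotypes did not overlap for Nfkb2, Rel, Relb and Nfkbib (4 of 9), beside 14.6% of genes in either direction and 6.84% in the direction of lower in KO. The difference was -0.45 for Relb (95% interval -0.71 to -0.18, adjusted p 0.14), -0.36 for Rel (-0.58 to -0.14, adjusted p 0.154) and -0.49 for Nfkbiz (-0.89 to -0.09, adjusted p 0.305). Rela (-0.03, interval -0.15 to 0.10) and Nfkbie (-0.00, interval -0.26 to 0.25) were centred near 0.

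In untreated cells the pattern of values was alike. All 9 means were lower in KO cells (47.4% of genes) and 0 of 9 passed in limma, where 1.42% of genes did, while 5 of 9 passed at an unadjusted p under 0.05, against 10.6% of genes. Arrays did not overlap for Nfkb2, Relb, Nfkbia, Nfkbiz and Bcl3 (5 of 9), beside 15.4% of genes in either direction and 7.88% in the direction of lower in KO. Relb differed by -0.47 (interval -0.74 to -0.21, adjusted p 0.092), Rel by -0.32 (-0.54 to -0.10, adjusted p 0.205) and Nfkb2 by -0.30 (-0.53 to -0.08, adjusted p 0.241). Bcl3 differed by -0.29 (adjusted p 0.269) and Nfkbiz by -0.48 (adjusted p 0.326). The difference of Rela was -0.00, with an interval of -0.13 to 0.12.

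**Figure D4:**
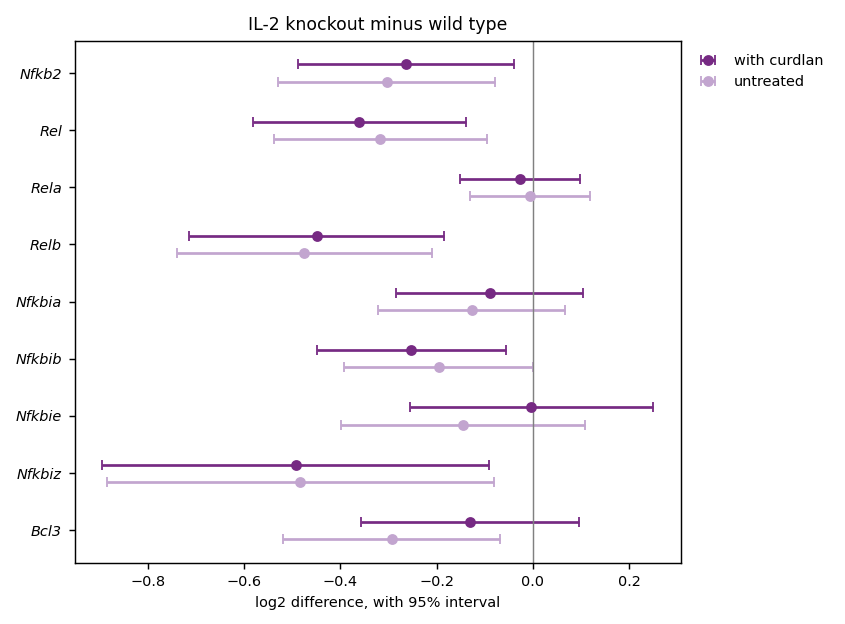
Log2 difference, KO minus WT (x axis), of the 9 members (y axis) with curdlan and in untreated cells, with 95% intervals from the limma fit. None of the members passed an adjusted p under 0.05 in either treatment. Relb, Rel and Nfkbiz lie farthest to the left with curdlan, and the intervals of Rela, Nfkbia and Nfkbie span 0 in both treatments.

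The 4 groups were then used together. The genotype difference averaged over both treatments was added after the data were seen. In it 3 of 9 members passed and all 3 were lower in KO cells, where 5.04% of genes passed in either direction. Relb was lower by a log2 difference of -0.46 (adjusted p 0.0101), Rel by -0.34 (adjusted p 0.0192) and Nfkb2 by -0.28 (adjusted p 0.0461). Nfkbiz (-0.49, adjusted p 0.0549), Nfkbib (-0.22, adjusted p 0.0706) and Bcl3 (-0.21, adjusted p 0.146) did not pass, nor did Nfkbia (-0.11, adjusted p 0.45), Nfkbie (-0.07, adjusted p 0.749) or Rela (-0.02, adjusted p 0.903). Same-numbered arrays contribute a value to each treatment. With the number within a genotype as a random effect, Relb (adjusted p 0.0296) and Rel (adjusted p 0.0419) kept their call and Nfkb2 (adjusted p 0.122) lost it, while 3.42% of genes passed. With the number as a fixed block shared by KO and WT arrays, 5 members passed, Nfkbib (adjusted p 0.0347) and Nfkbiz (adjusted p 0.029) being added. The share of genes that passed was then 8.13%. That block pairs KO with WT arrays of the same number, a pairing the values did not bear out with curdlan. It also leaves out what treated and untreated arrays of a number share within a genotype only.

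The averaged count rested on few arrays. It was 0 without the WT arrays numbered 2 and 1 without the KO arrays numbered 1 or the WT arrays numbered 3. It was also 1 without the second treated WT array, the second untreated WT array or the third untreated WT array. Markers of other cell types and of dendritic cells were read in the same contrast. The mean of the 8 dendritic cell markers lay between 11.18 and 11.31 on KO arrays against 11.39 and 11.43 on WT arrays with curdlan, and between 10.95 and 11.15 on KO arrays against 11.21 and 11.36 on WT arrays untreated. Of that list Dpp4 (averaged difference -1.33, adjusted p 0.00132) and Zbtb46 (-0.26, adjusted p 0.0371) passed, both lower in KO cells. Dpp4 also passed in limma with curdlan (-1.20, adjusted p 0.0423) and untreated (-1.45, adjusted p 0.0134), and Zbtb46 passed in neither. The other 6 did not pass in the averaged difference and ran from -0.05 to 0.06. The median over all 8 was -0.00, so the lower mean came mostly from Dpp4. The mean of the 6 macrophage markers lay between 11.90 and 11.95 on KO arrays against 11.78 and 11.93 on WT arrays with curdlan, and between 11.72 and 11.88 on KO arrays against 11.59 and 11.72 on WT arrays untreated. None of the 6 passed in the averaged difference. Fcgr1 (0.17), Mertk (0.13), Cd68 (0.13) and Csf1r (0.10) were higher in KO cells at an unadjusted p under 0.05 in limma. Cd14 differed by 0.08 and Adgre1 by -0.06, and the median of the list was 0.12. Of the 5 mast cell and basophil markers, Kit (-0.54, adjusted p 0.0394) and Cpa3 (-0.35, adjusted p 0.0175) passed, both lower in KO cells. The other 3, Mcpt8 (0.10), Mcpt4 (0.05) and Ms4a2 (0.05), were higher in KO cells without passing, and the median of the 5 was 0.05. Group means of Cpa3 lay between 4.24 and 4.70, below the lower quartile of every array. The mean of that list lay between 5.04 and 5.07 on KO arrays against 5.09 and 5.18 on WT arrays with curdlan, and between 4.97 and 5.003 on KO arrays against 5.18 and 5.19 on WT arrays untreated, and Kit was its 1 marker above the array median. The part of these marker lists in the genotype differences was not tested.

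Whether the curdlan effect itself differed between the genotypes was tested as the interaction. It passed for 0 of 9 members and for 0% of genes in limma, and 0 of 9 members had an unadjusted p under 0.05. The effect in KO cells minus that in WT cells ran from -0.06 for Nfkbib to 0.16 for Bcl3. The intervals differed in width, from -0.20 to 0.15 for Rela to -0.58 to 0.56 for Nfkbiz. With 3 arrays a group, any difference within a member's own interval remained compatible with its values. Il2, which was disrupted, had an interaction of -1.89 and did not pass either (adjusted p 0.357).

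The rest of the pathway was read from lists of genes, whose counts stand beside the shares of all genes that rose (9.29% in KO and 7.27% in WT cells) and fell (13.2% in KO and 12.3% in WT cells). Of 16 measured genes of the IKK complex and its upstream kinases and adaptors (Chuk was listed and not analysed here), 8 rose and 1 fell in KO cells, and 7 rose and 2 fell in WT cells. The list's median was 0.19 in KO cells and 0.21 in WT cells. Card9, the adaptor that carries the Dectin-1 signal towards NF-kB, fell in KO cells (-0.62, adjusted p 0.00163) and in WT cells (-0.71, adjusted p 0.000614). Map3k14, which encodes NIK, the kinase of the alternative route, rose by 0.50 in both KO cells (adjusted p 0.0342) and WT cells (adjusted p 0.036). Map3k8, a kinase held by the Nfkb1 precursor, rose by 0.40 in KO cells (adjusted p 0.00393) and 0.51 in WT cells (adjusted p 0.000823). Ikbke, an IKK-related kinase, rose by 0.40 in KO cells (adjusted p 0.0425) and 0.43 in WT cells (adjusted p 0.0359).

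Of 18 other genes that restrain NF-kB, 6 rose and 1 fell in KO cells and 6 rose and 1 fell in WT cells, with medians of 0.18 and 0.19. Usp18, a protease known mainly from interferon signalling, rose most (1.83 in KO cells, adjusted p 1.78e-06, and 1.79 in WT cells, adjusted p 1.12e-06). Tnfaip3, which encodes the ubiquitin-editing enzyme A20, rose by 1.01 in KO cells (adjusted p 1.77e-05) and 1.04 in WT cells (adjusted p 9.89e-06). Tnip1, which encodes a partner of that enzyme, rose by 0.75 in KO cells (adjusted p 0.000263) and 0.65 in WT cells (adjusted p 0.000531). Nkrf, a repressing factor, fell by 0.50 in KO cells (adjusted p 0.00584) and by 0.50 in WT cells (adjusted p 0.00573). Tank, an adaptor, rose by 0.47 in KO cells (adjusted p 0.0018) and 0.55 in WT cells (adjusted p 0.000589).

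Of 30 NF-kB target genes, 24 rose in KO cells and 26 in WT cells, and none fell in either. The median was 1.04 in KO cells and 0.91 in WT cells, larger than the members' own medians. Il12b, which encodes the shared p40 chain of IL-12 and IL-23, rose by 3.14 in KO cells (adjusted p 0.000882) and 4.17 in WT cells (adjusted p 0.00011). Ptgs2, the inducible cyclooxygenase gene, rose by 3.33 in KO cells (adjusted p 2.71e-05) and 2.86 in WT cells (adjusted p 7.04e-05). The costimulatory receptor gene Cd40 rose by 2.92 in KO cells (adjusted p 7.9e-05) and 2.37 in WT cells (adjusted p 0.000273). Il6 rose by 2.29 in KO cells (adjusted p 4.99e-05) and 2.71 in WT cells (adjusted p 1.06e-05).

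**Figure D5:**
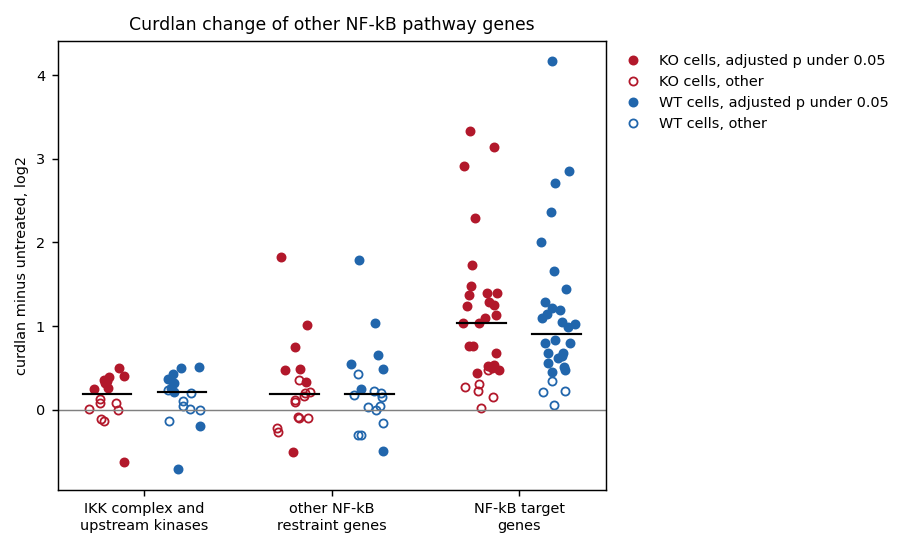
Curdlan minus untreated on the log2 scale (y axis) for the measured genes of 3 pathway lists (x axis) in KO cells and WT cells, 1 point per gene, filled where adjusted p was under 0.05, with the list median as a line. Most target genes lie well above 0, while the kinase and restraint lists have medians near 0.2 and hold genes on both sides of 0.

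By genotype, 0 genes of the 3 lists passed with curdlan and 0 passed in untreated cells in limma. At an unadjusted p under 0.05 with curdlan there were 4 of the kinase list, 2 of the restraint list and 9 of the targets. In untreated cells there were 4, 1 and 8. The restraint list's 2 of 18 and 1 of 18 stand beside 11.6% of all genes with curdlan and 10.6% untreated, so they are no more than the background. In the averaged difference, Map3k14 was lower in KO cells (-0.57, adjusted p 0.00968, and 0.0209 with the number as a random effect). Its differences were -0.57 both with curdlan (adjusted p 0.124) and untreated (adjusted p 0.0993). The remaining calls of the averaged difference were Ikbkg, higher in KO cells (0.20, adjusted p 0.0463), Otud7b, lower (-0.25, adjusted p 0.0316), and 6 of the 30 targets, all lower. Over all genes, 1.48% were called higher and 3.56% lower. Of these 8 listed genes only the target Traf1 kept its call with the random effect (-0.53, adjusted p 0.0353). That 1 of 30 targets is no more than the background, as 3.42% of all genes passed there. Ikbkg, Otud7b and Traf1 were picked out after their values were seen.

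The genes most like each member were found as those with the smallest root-mean-square difference of gene-centred log2 values over the 12 arrays. These arrays share the 4 groups, so any gene with a like response to curdlan ranks high. Nfkb2 and Bcl3 were among each other's nearest (0.0732), and each also had Gpr132, a G protein-coupled receptor gene, and Mtmr14, a lipid phosphatase gene, among its 3. Nfkb2 was the third nearest of both Relb (0.12) and Nfkbib (0.0865). Relb was nearest to Tnfrsf9, a costimulatory TNF receptor gene (0.0964), and then to Mreg (0.103). Rel was nearest to Zbtb46, a transcription factor gene of conventional dendritic cells (0.0729), followed by Cyria (0.08) and Atp11a (0.081).

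Rela, whose own root-mean-square spread was only 0.165, was nearest to Tbrg1 (0.0342), the transcription factor gene Gtf2f1 (0.0408) and the chromatin repressor gene Gatad2a (0.0427). Nfkbia was nearest to Csrnp1 (0.0882), the RNA-editing gene Adar (0.0899) and Ppp1r15a, a stress response phosphatase subunit gene (0.101). Nfkbib was nearest to Phldb1 (0.0668) and Maff (0.0741). Nfkbie was nearest to Trafd1 (0.0613), the immunoproteasome gene Psmb9 (0.0919) and Ogfr (0.101). Nfkbiz was nearest to Stat5a (0.129), the costimulatory ligand gene Cd86 (0.147) and Efna2 (0.155), at larger distances than any other member had to its 3. The own root-mean-square spread of Nfkbiz was also the largest of the members, at 0.625. A wider spread leaves room for larger distances, so these do not mark its pattern as the most distinct.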

How the data were processed

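Expression was measured on 12 Affymetrix mouse gene arrays (4 groups of 3). The authors deposited log2 values, 1 per probe set and array, made with RMA, per the submitters' processing notes. RMA corrects background, equalises array distributions and summarises probes, which compresses differences of dim genes and hides a global shift. Of 34760 probe sets, 21640 carry 1 symbol in the platform annotation, 1321 several and 11799 are not listed. Only the first kind was used. A gene with several kept the one with the highest mean.

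Group means were estimated over the 12 arrays by limma (3.58.1, under R 4.3.3), with 8 residual degrees of freedom and no filter on dim genes. Two-sided p-values were adjusted by Benjamini-Hochberg over the 19937 genes within a contrast, with a threshold of 0.05. Means carry the SD of 3 arrays and differences the SE or 95% interval of the fit. The steps were tested on simulated data. The members and lists were chosen with earlier results of these data known, as was the rule for names: all members, Il2, up to 4 genes per pathway list with the largest change past the threshold in a curdlan contrast, and the 3 genes nearest each member. Genotype averaged over both treatments was added after the data were seen.

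Deviations from the group means correlated between same-numbered arrays at 0.486 to 0.604 in KO cells and 0.368 to 0.450 in WT cells across treatments, others at 0.0625 or below. Between genotypes they did so at 0.105 to 0.254 untreated and -0.134 to 0.328 with curdlan, so numbers were taken to pair arrays in all of these but the last. Gene positions and promoters are from RefSeq tables of GRCm38.p6. Protein sequence was not used here.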

Additional observations from a re-analysis of the deposited data

How the results depend on the processing

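The alternatives, one at a time, were a replicate block, a random effect of the number within a genotype, arrays centred on the median or quantile normalised again, the mean of a gene's probe sets, dim genes left out, a trended and robust fit, array weights, a fit of the compared arrays alone, and leaving out each array or same-numbered pair. The curdlan count was 9 of 9 in WT cells in all 18 and 7 to 9 in KO cells. With the replicate block it stayed at 9 in KO and 9 in WT cells, and no other planned call changed. By genotype with curdlan, 2 members (Rel and Relb) passed under array weights and 0 otherwise. Array weights also raised the genes that passed in that contrast to 1402, against 124 as reported. Untreated, 2 (Rel and Relb) passed under array weights, where 615 genes passed against 283 as reported. Leaving out arrays gave 0 to 2 members untreated, the 2 without untreated WT array 1 or the WT pair numbered 1. The averaged count was 5 with the replicate block, dim genes left out, a trended and robust fit or array weights. In those 4 fits 1621, 1161, 1110 and 2186 genes passed, against 1005 as reported. It was 2 with arrays centred on the median (1104 genes passed) or the random effect (682 genes), and 0 to 3 with arrays left out. Of the 26 alternatives, the averaged call was lost in 19 for Nfkb2, 7 for Rel and 1 for Relb. Values near 0 that had not passed changed sign. With arrays centred on the median these were, by genotype, Nfkbie with curdlan (0.0075), Rela untreated (0.0518) and Rela averaged (0.0173), and in the interaction Nfkb2 (-0.0063), Relb (-0.0203) and Nfkbia (-0.0094). With array weights they were Nfkbie by genotype with curdlan (0.0955) and the interactions of Rela (0.0065) and Nfkbiz (0.0956). With arrays left out, the genotype difference with curdlan lay between -0.0635 and 0.0335 for Rela, -0.155 and 0.0096 for Nfkbia, -0.0727 and 0.128 for Nfkbie, and -0.21 and 0.00495 for Bcl3. Untreated Rela lay between -0.0256 and 0.0084, averaged Rela between -0.0446 and 0.0209 and averaged Nfkbie between -0.147 and 0.0169. The interaction lay between -0.0717 and 0.172 for Nfkb2, -0.145 and 0.0684 for Rel, -0.0586 and 0.0384 for Rela, -0.0934 and 0.177 for Relb, -0.0558 and 0.154 for Nfkbia, -0.138 and 0.0275 for Nfkbib, and -0.189 and 0.26 for Nfkbiz. The cause of these changes was not tested. With 3 arrays a group, a lone pair of arrays can decide a genotype call, and a missed threshold does not show equal levels.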
